A study of Mus musculus with 9 samples.

Results

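The 9 genes described here encode transcription factors that steer blood precursors towards neutrophils or monocytes. They were chosen by name as lineage factors outside the C/EBP and IRF families. They are Spi1, Gfi1, Klf4, Klf2, Maf, Zeb2, Rara, Bcl6 and Runx1, and all 9 were found among the 54532 genes of the deposited expression table. RNA sequencing had been run on myeloid white cells of C57BL/6 mice aged 6 to 8 weeks, with 3 libraries, A, B and C, in each of 3 groups. The group KO carries the genotype label SOCS3 KO, while Gr_1 and fl are both labelled Wild type. Socs3 encodes a suppressor of cytokine signalling that limits STAT3. The labels do not spell out Gr_1 or fl, do not say how the knockout was made or in which cells, and name no treatment. Nor do they say whether the libraries are from separate animals, so a p-value here covers only the spread among these samples, and that may be technical.

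Neutrophils and monocytes arise from shared bone marrow precursors, and the balance between opposing factors sets which branch is taken. PU.1, the product of Spi1, is needed by both branches, and a high level of it favours monocytes and macrophages. GFI1 represses monocyte genes on the neutrophil branch, whereas KLF4 and ZEB2 serve the monocyte branch. KLF2 and BCL6 are best known in myeloid cells for holding back inflammatory genes.

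Levels are FPKM, the fragments of a gene per kilobase of its exons and per unit of library depth as the authors scaled it. Recovered depth was 18.3 to 21.5 M fragments per library, at which 3 fragments on 1 kilobase of exon make 0.136 to 0.187 FPKM. Socs3 was at 9.23, 6.76 and 8.37 FPKM in the libraries labelled KO, against 37.0, 36.6 and 33.0 in Gr_1 and 3.87, 4.02 and 3.40 in fl. KO thus had less of the targeted gene than Gr_1 and more than fl, and each direction for KO rests on the label. Lyz2, the lysozyme gene of myeloid cells, whose locus is widely used to drive Cre in them, set KO apart from both other groups, at 53.2, 59.8 and 55.97 FPKM in KO, 10694, 10808 and 10486 in Gr_1 and 8670, 8827 and 9998 in fl. The labels do not name Lyz2. Library KO C lay between KO A and KO B in 7559 of 12289 genes (61.5%), against 15.6% to 44.4% for any other library within its group. It also carried both Xist, at 26.3 FPKM, and 4 Y-linked genes, at 14.2 FPKM in sum, whereas KO A had the Y-linked genes and KO B had Xist. Every Gr_1 and fl library carried the Y-linked genes, so sex differed within KO and between the groups. Whether KO C shares RNA with both was not tested. Counts of calls in KO were also made without it, while levels, log2 changes and intervals include it unless stated. Late neutrophil genes summed to 24096 to 34870 FPKM in KO, 56746 to 58142 in Gr_1 and 21641 to 26716 in fl. Most of each sum was Ngp and Camp, and less abundant genes of the list could differ more. Ly6g averaged 107 FPKM in KO, 684 in Gr_1 and 9.99 in fl, and Mmp9 215, 1621 and 13.4. Early granulocyte genes, such as Elane and Mpo, summed to 4647 to 8056 FPKM in KO, 942 to 1083 in Gr_1 and 5262 to 7420 in fl. Monocyte genes, such as Csf1r and Fn1, summed to 1117 to 1242 FPKM in KO, 936 to 1056 in Gr_1 and 1925 to 2144 in fl. These marker levels differed between the groups, and in such bulk RNA fewer cells of a type and less RNA per cell cannot be told apart.

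Relative to fl, 5 of the 9 factor genes were lower in the libraries labelled KO and none was higher, nor was any with voom or at a raw p under 0.05. Klf4, Zeb2, Klf2, Rara and Maf were called at an adjusted p under 0.05 by limma on log2(FPKM + 1), with Benjamini-Hochberg adjustment over all 12289 genes tested. The same fit called 11% of all genes tested, 6.52% as lower and 4.48% as higher. Without KO C only Klf4 stayed called among the 9, where 4.71% of genes were called. The 3 libraries labelled KO did not overlap those of fl for the same 5 genes, as was true of 31.4% of all genes. Maf is among these 5 but passed the filter of 1 FPKM in 3 libraries only through fl. The filter thus favoured its place in both counts. Relative to fl, 6 of the 9 were called in Gr_1, against 61.4% of all genes tested (30% higher and 31.4% lower). Bcl6, Klf2 and Spi1 were higher in Gr_1 and Klf4, Zeb2 and Gfi1 were lower, and these 6 calls also stood without KO C, where 58.4% of genes were called, and without any other single library. The Gr_1 and fl libraries were apart for 7 of the 9, against 67.5% of all genes. Both comparisons use the same fl libraries. Wherever 2 groups did not overlap, an exact permutation over libraries (two-sided) had p = 0.1, the minimum with 3 against 3.

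**Figure D1:**
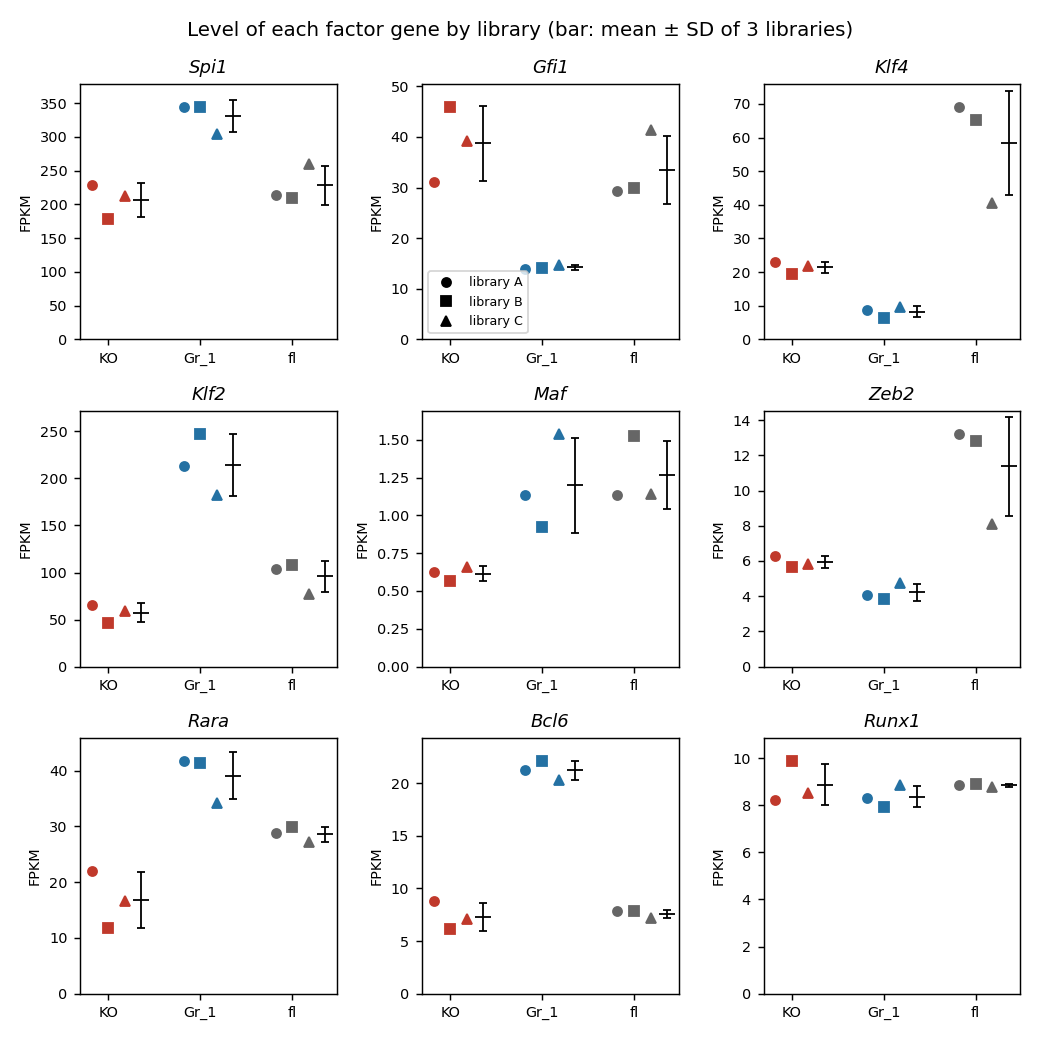
Level of each of the 9 factor genes in FPKM (vertical axis, linear and starting at 0) in every library of KO, Gr_1 and fl. Marker shapes give the library letter and the bar beside each group its mean ± SD of 3 libraries. Klf4 spans 10.9-fold between its highest and lowest library and Runx1 spans 1.24-fold.

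Spi1 was the most abundant of the 9 in all 3 groups. Spi1 encodes PU.1, the ETS factor that opens myeloid genes. It lies on chromosome 2 from 91082390 to 91115756 on the plus strand (GRCm38, as for every position here), and each value sums over the annotated exons. Its levels were 228, 178 and 212 FPKM in KO A, B and C, 344, 344 and 304 FPKM in Gr_1, and 214, 209 and 260 FPKM in fl. All 3 Gr_1 libraries stood above the other 6, while KO and fl overlapped. Spi1 was 1.45-fold higher in Gr_1 than in fl by mean FPKM, a fitted log2 change of 0.54 ± 0.12 (SE; limma, adjusted p = 0.00388). Between KO and fl the log2 change was -0.15, with a 95% interval from -0.42 to 0.13 (adjusted p = 0.481), so a change of modest size either way was not resolved.

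Runx1 encodes the DNA-binding part of core-binding factor, which is required for blood stem cells to form. It was the steadiest of the 9. Runx1 (chromosome 16, 92601466 to 92826149, minus strand) had 8.23, 9.87 and 8.51 FPKM in KO, 8.32, 7.93 and 8.84 FPKM in Gr_1, and 8.86, 8.92 and 8.79 FPKM in fl. The 3 groups overlapped in every pairing. Its log2 change was -0.00 between KO and fl, with a 95% interval from -0.17 to 0.17 (limma, adjusted p = 0.995), and -0.07 between Gr_1 and fl, from -0.25 to 0.10 (adjusted p = 0.410). Its highest library, KO B, stood 1.24-fold above its lowest, Gr_1 B. Scaled without the 10 most abundant genes, Runx1 was called 0.26 higher in KO than in Gr_1 on the log2 scale (adjusted p = 0.0239).

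Gfi1 encodes a zinc-finger repressor that neutrophil development requires and that silences monocyte genes such as Csf1. Its level was low in Gr_1 and high in both other groups. Gfi1 (chromosome 5, 107716657 to 107726036, minus strand) had 31.2, 46.0 and 39.2 FPKM in KO, 13.8, 14.1 and 14.7 FPKM in Gr_1, and 29.4, 29.9 and 41.3 FPKM in fl. The Gr_1 libraries lay within 1 FPKM of each other and below the other 6, while KO and fl overlapped. Gfi1 was 2.36-fold lower in Gr_1 than in fl, a fitted log2 change of -1.17 ± 0.16 (limma, adjusted p = 0.000250). Between KO and fl its log2 change was 0.20, with a 95% interval from -0.16 to 0.56 (adjusted p = 0.458). The opposite strand gene A430072P03Rik shares 101 exon bases (3.17%) with Gfi1 and averaged 4.20 FPKM in KO, 2.25 in Gr_1 and 3.45 in fl. The sources used here do not say whether counting used strand, so reads in that stretch cannot be told apart. Early granulocyte genes were low in the same Gr_1 libraries, and their part in the Gfi1 difference was not tested.

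Rara encodes retinoic acid receptor alpha, which drives granulocyte maturation when it binds its ligand. Its 3 groups did not overlap, in the order Gr_1, fl, KO. Rara (chromosome 11, 98927818 to 98974942, plus strand) had 21.9, 11.9 and 16.6 FPKM in KO, 41.7, 41.4 and 34.2 FPKM in Gr_1, and 28.7, 29.8 and 27.2 FPKM in fl. The libraries labelled KO were all below the others and spread between KO B and KO A. Rara was 1.70-fold lower in KO than in fl, a fitted log2 change of -0.77 ± 0.18 (limma, adjusted p = 0.0295). That call was lost without KO C (adjusted p = 0.0907) and without any 1 of the 3 fl libraries (adjusted p = 0.0587 without fl C). A fit of KO and fl alone did not call it either (adjusted p = 0.0727). In Gr_1 Rara stood 0.43 ± 0.18 above fl on the log2 scale (adjusted p = 0.0652), which missed the threshold, though the libraries were apart. This difference was called by a fit of Gr_1 and fl alone (adjusted p = 0.00613), with voom, and without KO A or KO B. It was not called when scaled without the 10 most abundant genes (adjusted p = 0.178) or without fl C (adjusted p = 0.140).

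Klf4 encodes a zinc-finger factor that monocytes need to form. It showed the widest range of the 9, was lower in KO and lowest in Gr_1. Klf4 (chromosome 4, 55527143 to 55532466, minus strand) had 22.9, 19.5 and 21.8 FPKM in KO, 8.70, 6.32 and 9.73 FPKM in Gr_1, and 69.1, 65.3 and 40.6 FPKM in fl. No 2 groups overlapped, and fl C was the lowest of its group, at 0.604 of the mean of fl A and fl B. Klf4 was 2.72-fold lower in KO than in fl, a fitted log2 change of -1.37 ± 0.21 (limma, adjusted p = 0.00419). The call stood in all 9 fits that leave out 1 library, with adjusted p = 0.0211 without KO C and 0.00229 without fl C. Gr_1 held 7.07-fold less Klf4 than fl, a fitted log2 change of -2.66 ± 0.21 (adjusted p = 1.2e-05).

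Zeb2 encodes a zinc-finger repressor that binds E-boxes and that monocytes and plasmacytoid dendritic cells need. It followed the order of Klf4, highest in fl and lowest in Gr_1. Zeb2 (chromosome 2, 44983632 to 45117395, minus strand) had 6.30, 5.67 and 5.82 FPKM in KO, 4.09, 3.82 and 4.73 FPKM in Gr_1, and 13.2, 12.8 and 8.12 FPKM in fl. Again the groups were apart and fl C was the lowest fl library, at 0.624 of the mean of fl A and fl B. Zeb2 was 1.92-fold lower in KO than in fl, a fitted log2 change of -0.81 ± 0.16 (limma, adjusted p = 0.0136), and this call was lost without KO C (adjusted p = 0.0568) and without fl B. It was 2.70-fold lower in Gr_1 than in fl, a fitted log2 change of -1.22 ± 0.16 (adjusted p = 0.000201). Its antisense partner Zeb2os, with 653 shared exon bases (3.27%), averaged 1.22 FPKM in KO, 1.02 in Gr_1 and 2.37 in fl. Monocyte genes summed lower in the KO and Gr_1 libraries than in fl, and their part in the Klf4 and Zeb2 differences was not tested.

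Maf encodes c-MAF, a leucine-zipper factor of mature macrophages, and it was barely expressed. Maf (chromosome 8, 115682942 to 115707794, minus strand) had 0.623, 0.564 and 0.658 FPKM in KO, 1.14, 0.922 and 1.54 FPKM in Gr_1, and 1.14, 1.53 and 1.14 FPKM in fl, on 101 to 261 fragments per library. The libraries labelled KO lay below all others, while Gr_1 and fl overlapped. Maf was 2.06-fold lower in KO than in fl by mean FPKM, a fitted log2 change of -0.49 ± 0.13 (limma, adjusted p = 0.0420), where the added 1 FPKM makes the log2 change understate the fold. Maf passed the filter of 1 FPKM in 3 libraries only through fl, since 2 of the other 6 libraries reached that level, so the filter favoured a lower value in KO. The call was lost without KO C (adjusted p = 0.112) and stood in 2 of the 9 fits that leave out 1 library. Between Gr_1 and fl the log2 change was -0.05, with a 95% interval from -0.34 to 0.24 (adjusted p = 0.749).

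Klf2 encodes a sister factor of KLF4 that keeps T cells and monocytes quiescent. It moved the opposite way to Klf4 in Gr_1 and the same way in KO. Klf2 (chromosome 8, 72319033 to 72321656, plus strand) had 65.8, 46.2 and 59.1 FPKM in KO, 213, 247 and 182 FPKM in Gr_1, and 103, 108 and 76.8 FPKM in fl. No 2 groups overlapped, and fl C was again the lowest of fl. Klf2 was 2.23-fold higher in Gr_1 than in fl, a fitted log2 change of 1.156 ± 0.174 (limma, adjusted p = 0.000462). In KO Klf2 stood 1.68-fold below fl, a fitted log2 change of -0.74 ± 0.17 (adjusted p = 0.0292), a call that was lost without KO C (adjusted p = 0.0828), KO B, fl A or fl B. Because Klf4 and Klf2 are sisters that parted in Gr_1, their promoters are shown, from RefSeq on GRCm38.p6, with 250 bases before and 50 after the annotated start. Klf4 is at chr4:55532426-55532725 on the minus strand and Klf2 at chr8:72318812-72319111 on the plus strand, and capitals mark the GC box GGGCGG on either strand, the kind of element that SP and KLF proteins bind.
Klf4: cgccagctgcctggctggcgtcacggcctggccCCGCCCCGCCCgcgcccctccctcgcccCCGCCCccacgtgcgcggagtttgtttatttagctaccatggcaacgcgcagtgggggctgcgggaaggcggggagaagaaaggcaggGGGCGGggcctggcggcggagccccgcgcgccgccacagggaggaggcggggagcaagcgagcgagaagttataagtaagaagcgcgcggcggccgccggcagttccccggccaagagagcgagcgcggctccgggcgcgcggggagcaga
Klf2: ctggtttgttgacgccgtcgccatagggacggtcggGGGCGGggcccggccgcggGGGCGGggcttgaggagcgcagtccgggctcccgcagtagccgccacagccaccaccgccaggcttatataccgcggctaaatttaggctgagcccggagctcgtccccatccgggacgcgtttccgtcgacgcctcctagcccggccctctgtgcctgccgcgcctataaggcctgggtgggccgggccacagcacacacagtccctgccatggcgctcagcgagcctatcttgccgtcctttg
The Klf4 window holds 4 GC boxes, 2 of which share a base, at 74.3% G and C, and the Klf2 window holds 2 at 69.3%. Of 32851 windows of the same length, 35.7% hold at least 1 GC box and 10.7% hold 3 or more. The match describes the letters only.

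**Figure D2:**
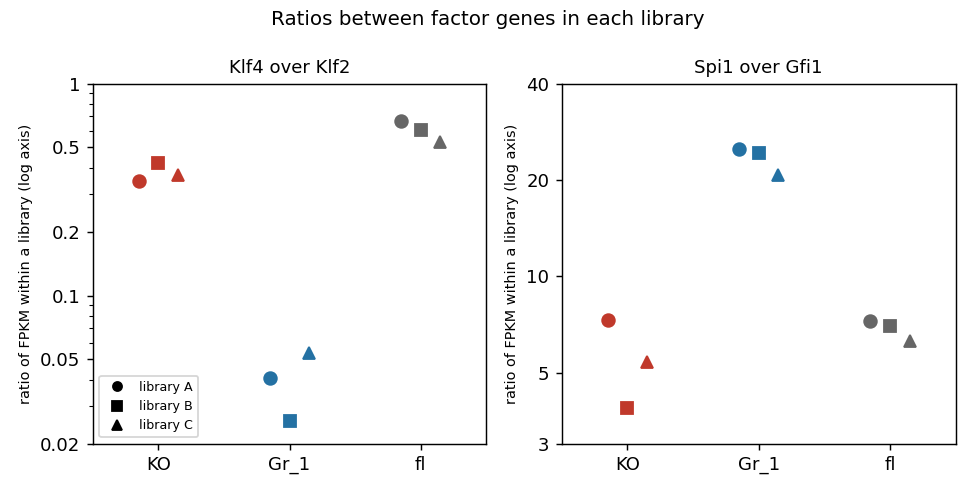
Ratio of Klf4 to Klf2 and of Spi1 to Gfi1 within each library (log axes, FPKM over FPKM, marker shape for the library letter). The Klf4 to Klf2 ratio is lowest in the 3 Gr_1 libraries, between 0.0256 and 0.0534, and highest in fl, between 0.528 and 0.669.

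A ratio of 2 genes within a library does not depend on how the library was scaled. Both pairs plotted were chosen after their values were seen, so they are descriptions with no test. Klf4 over Klf2 was 0.348, 0.423 and 0.369 in KO, 0.0407, 0.0256 and 0.0534 in Gr_1, and 0.669, 0.607 and 0.528 in fl. Spi1 over Gfi1 was 7.32, 3.88 and 5.40 in KO, 24.9, 24.3 and 20.7 in Gr_1, and 7.27, 6.99 and 6.30 in fl. The first ratio set all 3 groups apart and the second set only Gr_1 apart, with KO and fl overlapping. Among all 36 pairs of the factor genes, the ratio set KO apart from fl in 18 and Gr_1 apart from fl in 30. Separation of Gr_1 from fl was thus usual among the pairs and not particular to those plotted. The 36 ratios reuse the same 9 genes, and no share over pairs of other genes was computed. Single genes were apart in 31.4% of all genes for KO and fl and in 67.5% for Gr_1 and fl. Klf4 over Zeb2 was 3.44 to 3.75 in KO, 1.66 to 2.13 in Gr_1 and 5 to 5.23 in fl, so fl C, low in both genes, had the ratio of its group.

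Bcl6 encodes a zinc-finger repressor that competes with STAT proteins for their sites and dampens inflammatory genes in macrophages. It was high in Gr_1, with KO and fl well below. Bcl6 (chromosome 16, 23965052 to 23988852, minus strand) had 8.77, 6.13 and 7.05 FPKM in KO, 21.2, 22.1 and 20.3 FPKM in Gr_1, and 7.83, 7.83 and 7.16 FPKM in fl. Every Gr_1 library held more than 2 times the level of any other library, and KO and fl overlapped. Bcl6 was 2.79-fold higher in Gr_1 than in fl, a fitted log2 change of 1.37 ± 0.11 (limma, adjusted p = 1.29e-05). Between KO and fl the log2 change was -0.06, with a 95% interval from -0.31 to 0.18 (adjusted p = 0.763). Bcl6 was picked for the STAT-type letters at its starts, and its 2 RefSeq promoter windows are shown, both on the minus strand of GRCm38.p6. The upstream one is chr16:23988803-23989102 and the downstream one chr16:23981234-23981533, with capitals for TTCNNNGAA, which reads the same on both strands.
Bcl6 upstream start: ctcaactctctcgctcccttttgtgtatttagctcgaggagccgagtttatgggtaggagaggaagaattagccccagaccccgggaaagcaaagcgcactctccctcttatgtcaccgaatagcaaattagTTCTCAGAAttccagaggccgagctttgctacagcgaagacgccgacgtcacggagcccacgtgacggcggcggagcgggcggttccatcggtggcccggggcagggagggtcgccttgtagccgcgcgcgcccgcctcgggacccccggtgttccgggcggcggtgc
Bcl6 downstream start: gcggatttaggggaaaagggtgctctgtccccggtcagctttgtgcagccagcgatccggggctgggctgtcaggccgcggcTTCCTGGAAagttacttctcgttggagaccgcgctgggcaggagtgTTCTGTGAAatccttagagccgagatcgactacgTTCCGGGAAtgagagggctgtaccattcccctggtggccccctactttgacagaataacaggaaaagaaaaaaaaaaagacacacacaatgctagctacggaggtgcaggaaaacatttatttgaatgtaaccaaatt
The upstream window holds 1 match and the downstream window holds 3. At least 1 match is found in 8.3% of the 32851 windows and 3 or more in 11 windows (0.0335%). Since Bcl6 was picked for these letters, the shares describe the windows and are no test. Any role of STAT3 at Bcl6 was not tested. RefSeq windows matched 7 of the 9 genes (not Spi1 or Maf), 16 in all, and TTCNNNGAA stood in 5 of these, belonging to Bcl6, Zeb2 and Rara. The other letters searched on both strands were CACCC (10 of the 16 windows, 57.5% of all windows), GAGGAAGT (0, 3.2%), TGTGGT or TGCGGT (2, 22.4%), AGGTCA (1, 16.3%), CACCTG (3, 20.2%), AAATCA (1, 14%) and TGCTGA (1, 19.5%). GGGCGG stood in 9 of the 16. Some windows of Zeb2 and of Rara overlap and hold the same sites, so these window counts include some sites more than once. A match describes the letters only, and no match says only that the letters are not in the window.

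Set directly against Gr_1, the libraries labelled KO differed in 7 of the 9 genes, where 55.7% of all genes were called (26.7% higher and 28.9% lower). The same 7 were called without KO C, where 46.3% of genes were called. Klf2, Bcl6, Rara, Spi1 and Maf were lower in KO and Gfi1 and Klf4 were higher. Klf2 was 3.76-fold lower in KO than in Gr_1, a fitted log2 change of -1.90 ± 0.17 (limma, adjusted p = 6.2e-05), and Bcl6 was 2.90-fold lower, a change of -1.43 ± 0.11 (adjusted p = 3.4e-05). Gfi1 was higher by 1.37 ± 0.16 on the log2 scale (adjusted p = 0.000169) and Klf4 by 1.29 ± 0.21 (adjusted p = 0.000867). Rara was lower, with a fitted log2 change of -1.21 ± 0.18 (adjusted p = 0.000647), as was Spi1, with -0.68 ± 0.12 (adjusted p = 0.00137). Maf, with a fitted log2 change of -0.44 (adjusted p = 0.0167), was no longer called without Gr_1 C (adjusted p = 0.0661) or when scaled without the 10 most abundant genes (adjusted p = 0.0515). Zeb2 missed the threshold with a fitted log2 change of 0.41 ± 0.16 (adjusted p = 0.0528), although KO lay above Gr_1 in every library. KO and Gr_1 were apart for 8 of the 9, against 68.2% of all genes.

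**Figure D3:**
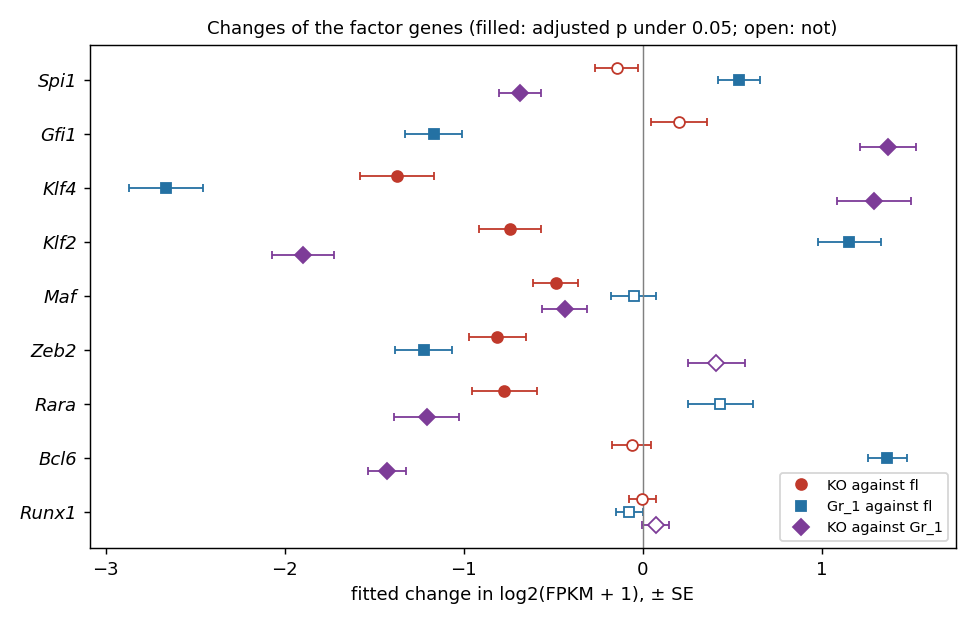
Fitted change of each factor gene in log2(FPKM + 1) (horizontal axis, bars ± SE) for KO against fl, Gr_1 against fl and KO against Gr_1. Filled markers have a limma adjusted p under 0.05. Klf4 lies left of 0 in both comparisons with fl, at -1.37 and -2.66, whereas Klf2 lies at -0.74 for KO and at 1.156 for Gr_1.

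Within the groups the factor genes moved between single libraries. KO A had a higher level than KO B for 7 of the 9, with Gfi1 and Runx1 the other way, and KO C lay between them for 8 of the 9. Early granulocyte genes summed to 4647, 8056 and 6436 FPKM in KO A, B and C, and late neutrophil genes to 34870, 24096 and 29526 FPKM. In fl, library C had less Klf4, Zeb2 and Klf2 and more Gfi1 and Spi1 than fl A and fl B. Eosinophil genes summed to 8852 FPKM in fl C, against 4168 in fl A and 4520 in fl B, and basophil and mast cell genes to 212, against 93.4 and 113 FPKM. Most of the eosinophil sum was Prg2, and Epx and Prg3 were also higher in fl C. Siglecf rose less (20.1 FPKM in fl C, against 16.7 and 17.9). Il5ra lay between fl A and fl B, and Ccr3 was lower in fl C (5.04 FPKM, against 7.56 and 7.48). The part of eosinophils, basophils and mast cells in the factor levels was not tested. Without fl C, Klf4, Zeb2 and Klf2 were the 3 factor genes called in KO against fl, where 9.66% of all genes were called.

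The median log2 change of the 9 was -0.49 in KO against fl, beside -0.01 over all genes tested, and -0.05 in Gr_1 against fl, beside -0.03. In KO against Gr_1 it was -0.44, beside 0.01. In each comparison the median of the 9 was the value of Maf, the barely expressed gene that passed the filter only through fl. These medians thus describe 1 gene and not a shift of the set. Scaling without the 10 most abundant genes moved the median of all genes to 0.05 in KO against fl, -0.14 in Gr_1 against fl and 0.18 in KO against Gr_1. With that scaling Klf2 (adjusted p = 0.0564) and Maf (adjusted p = 0.0585) were no longer called in KO against fl, and their direction stayed. It also turned the split of all called genes to 768 higher and 585 lower in KO against fl, against 551 and 801 in the scaling as deposited. In Gr_1 against fl it gave 2919 higher and 4784 lower, against 3686 and 3864, and in KO against Gr_1 5019 higher and 2418 lower, against 3287 and 3556.

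Relatives of the 9 in the same gene families were called in both directions, as were genes in general. Of all genes tested, 11% were called in KO against fl and 61.4% in Gr_1 against fl. The list held 31 relatives, of which 27 were tested. In KO 4 were higher than in fl (Ets1, Klf7, Zeb1 and Runx2) and 5 lower (among them Klf10, Klf13 and Rxra), and without KO C these counts were 1 and 3. In Gr_1 13 were higher and 9 lower than in fl (Klf1, among the higher ones, passed the filter only through Gr_1), which became 10 and 11 when scaled without the 10 most abundant genes and 11 and 11 after quantile normalization. Klf7 was higher in both, by 0.49 ± 0.09 in KO (limma, adjusted p = 0.00894) and 1.25 ± 0.09 in Gr_1 (adjusted p = 7.08e-06). Klf10 was lower in both, with -0.47 ± 0.06 in KO (adjusted p = 0.00183) and -0.69 ± 0.06 in Gr_1 (adjusted p = 1.73e-05). Both calls in KO stood without KO C (adjusted p = 0.0355 for Klf7 and 0.0141 for Klf10). Of 18 binding partners and corepressors, 0 were called higher and 1 lower in KO against fl, with and without KO C. Among these 18, 6 had a raw p under 0.05, voom called 3, and quantile normalization gave 2 higher and 1 lower. In the other comparison 7 of the 18 were higher in Gr_1 than in fl, among them Crebbp and Ncor1, and 8 were lower, among them Jun.

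Genes known as direct targets of these factors were called in both directions, as were genes in general. Of all genes tested, 30% were called higher and 31.4% lower in Gr_1 against fl. In KO against fl these shares were 4.48% and 6.52%, or 4.71% together without KO C, and they stand beside every target list below. Of 12 PU.1 targets, 8 were higher in Gr_1 than in fl and 4 were lower, with a median log2 change of 0.62. Csf3r, the G-CSF receptor of neutrophils, was higher by 2.49 ± 0.18 (limma, adjusted p = 8.77e-06) and Itgam, the integrin CD11b, by 1.21 ± 0.11 (adjusted p = 3.09e-05). The M-CSF receptor Csf1r, at 39.0 ± 2.41 FPKM in Gr_1 and 105 ± 2.69 in fl (SD, n = 3 each), was among the lower ones. So was the macrophage lysosome gene Cd68, at 37.0 ± 0.142 FPKM in Gr_1 and 106 ± 4.09 in fl. In KO against fl 1 of the 12 was higher (Csf3r, lost without KO C) and 4 were lower (Csf1r, Msr1, Fcgr1 and Cd68), with a median of -0.02, and without KO C 2 were lower. Csf1r fell by 1.164 on the log2 scale in KO against fl (adjusted p = 0.00179, and 0.0108 without KO C). Of 6 targets of KLF2 or KLF4, Thbd, Itgb7 and Cdkn1a were lower in both comparisons and S1pr1 was higher in both, but without KO C only 2 were called in KO, both lower. Thbd, the anticoagulant receptor thrombomodulin, averaged 7.49 ± 1.98 FPKM in KO, 9.42 ± 1.56 in Gr_1 and 22.7 ± 1.45 in fl.

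Of 8 GFI1 targets tested, 3 were higher in KO than in fl (among them Csf1 and Egr1) and Cdkn1a was lower, and without KO C 1 was higher and 0 lower. In Gr_1 4 were higher, of which Egr2 passed the filter only through Gr_1, and 3 lower. Of 8 BCL6 targets tested, Ccnd2 was higher and Cdkn1a lower in KO, and neither was called without KO C. In Gr_1 2 were higher (Ccnd2 and Cd44) and 4 lower (Cdkn1a, Id2, Trp53 and Chek1). Of 4 retinoic acid response genes tested, of 11 listed, Tgm2 and Cd38 were higher in Gr_1. None of the 4 was called by limma in KO against fl, where 0 had a raw p under 0.05 and voom called 0. The most abundant were Cebpe and Dhrs3. Of 5 RUNX1 targets tested, Csf1r was lower in KO, and in Gr_1 Pf4 was higher and Csf1r, Mpo, Cebpa and Elane were lower. Of 3 c-MAF targets tested, Mrc1 and Cd163 were higher in Gr_1, and limma called none in KO, where 2 had a raw p under 0.05 and voom called 0.

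**Figure D4:**
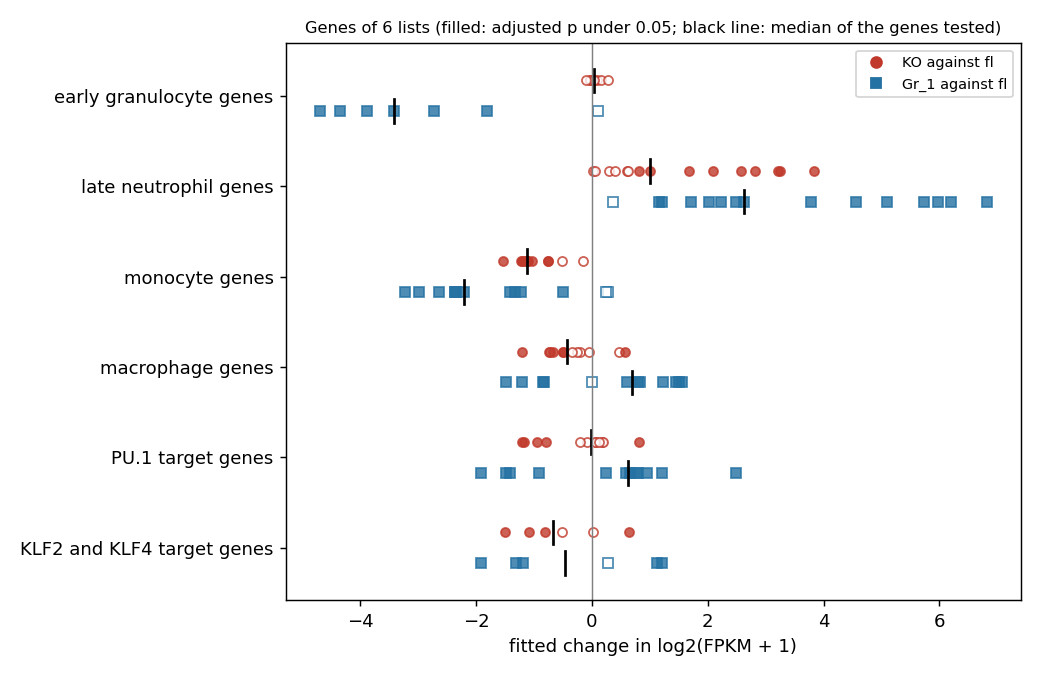
Fitted change in log2(FPKM + 1) (horizontal axis) of each tested gene of 6 lists, for KO against fl and Gr_1 against fl. Filled markers have a limma adjusted p under 0.05 and black lines mark the median of the genes tested. The median of the monocyte genes is -1.12 for KO and -2.20 for Gr_1, and that of the early granulocyte genes is 0.03 for KO and -3.41 for Gr_1.

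Marker genes of cell types differed between the groups beside the factor genes. The share of all genes called was 11% in KO against fl (4.71% without KO C) and 61.4% in Gr_1 against fl. Of 15 late neutrophil genes, 9 were higher in KO than in fl and none lower, with a median log2 change of 1.003, and 7 were higher without KO C. In Gr_1 14 of the 15 were higher, with a median of 2.62. Of 13 monocyte genes, 11 were lower in KO (8 without KO C) and 11 in Gr_1, with medians of -1.12 and -2.20. Fn1, the fibronectin gene, averaged 88.3 ± 0.843 FPKM in KO, 26.7 ± 5.51 in Gr_1 and 257 ± 12.1 in fl. Irf8, the monocyte and dendritic cell factor gene, averaged 14.1 ± 1.72 FPKM in KO, 9.90 ± 0.378 in Gr_1 and 24.6 ± 1.76 in fl. Of 7 early granulocyte genes, 6 were lower in Gr_1, and limma called none in KO against fl, with a median of 0.03, where 0 of the 7 had a raw p under 0.05 and voom called 0. Of 12 macrophage genes tested, 1 was higher and 5 lower in KO (1 and 2 without KO C, and also when scaled without the 10 most abundant genes), and 7 were higher and 4 lower in Gr_1.

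Lymphocyte, basophil, red cell and progenitor genes were present too. All 9 B cell genes were higher in Gr_1 and limma called none in KO, where 0 had a raw p under 0.05 and voom called 0. Their summed levels were 184 to 245 FPKM in KO, 659 to 723 in Gr_1 and 228 to 262 in fl. T cell genes summed to 21.7 to 29.97 FPKM in KO, 12.5 to 14.3 in Gr_1 and 5.64 to 7.97 in fl. Of 6 tested, Trac, Trbc1 and Trbc2 passed the filter only through the KO libraries, so their higher level in KO was required by the filter and is no result. Of the other 3, Cd3d and Lck were higher in KO, also without KO C, and in Gr_1. In Gr_1 against fl 4 of the 6 T cell genes tested were not called. All 6 basophil and mast cell genes were higher in KO (2 without KO C) and limma called none in Gr_1, where 1 had a raw p under 0.05 and voom called 0. They summed to 342 to 466 FPKM in KO, 89.9 to 172 in Gr_1 and 93.4 to 212 in fl. NK cell genes summed to 132 to 253 FPKM in KO, 15.7 to 21.6 in Gr_1 and 139 to 202 in fl. Most of each sum was Nkg7, with means of 169, 16.5 and 158 FPKM, so the sum is no level of NK cells. Klrd1 averaged 4.21, 0.621 and 2.10 FPKM in KO, Gr_1 and fl, and Gzma 8.89, 1.20 and 4.13. Of 6 NK cell genes tested, Ncr1, Klrb1c and Prf1 passed the filter only through KO in the same way. Of the other 3, Klrd1 and Gzma were higher in KO, neither of them without KO C, and 4 of the 6 were lower in Gr_1. Of 6 eosinophil genes, 1 was higher in KO (0 without KO C) and 4 were lower in Gr_1. Of 10 erythroid and platelet genes tested, 1 was higher in KO (0 without KO C) and 9 in Gr_1, some of which, Klf1 among them, passed the filter only through Gr_1. Of 6 progenitor genes tested, 3 were higher in KO, Gata2, Cd34 and Hlf (1 without KO C, and 6 when scaled without the 10 most abundant genes), and 2 were lower in Gr_1, Kit and Flt3. Of 3 dendritic cell genes tested, Siglech passed the filter only through KO, Cd209a was lower in KO (not called without KO C), and Flt3 and Cd209a were lower in Gr_1. Of 2 endothelial, fibroblast and epithelial genes tested, Col1a1 passed the filter only through Gr_1, and limma called neither in KO, where 1 had a raw p under 0.05 and voom called 0. Bcl6, Klf2 and Runx1 are also expressed in lymphocytes or progenitors, and the part of those cells in their levels was not tested.

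The genes closest in profile were found for the 6 factor genes whose group means span at least 1 on the log2 scale, by the root mean square difference of centred log2(FPKM + 1) over the 9 libraries. Closest to Bcl6 was Snrk, at 0.0493, followed by Cmtm6 and Smap2. Closest to Zeb2 were Plcb1, at 0.0695, Fam49a and Vwa5a, and closest to Klf4 were Ahnak, at 0.169, Arhgef37 and the monocyte gene Ms4a6c. Rara was nearest to Hmox1, at 0.0893, the haem oxygenase gene, then to Myadm and Lgals3. Klf2 was nearest to Slc11a1, at 0.191, and to the complement genes C1qa and C1qb. Gfi1 was nearest to Gm45855, at 0.0830, the eosinophil ribonuclease gene Ear1, and Cables1. Both genes of each pair are read from the same 9 libraries, so the values describe these libraries only.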

How the data were processed

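Gene expression was measured by paired-end sequencing of total RNA in 9 libraries. The authors deposited FPKM for 54532 Ensembl genes, with a column for each library, per the file headers. The submitters' processing notes name featureCounts 1.5.0-p3, DESeq2 1.16.1 and the builds mm10 and GRCm38. The sources used here name no aligner. Symbols and positions came from GENCODE M21, which matched 54495 genes and missed 37. Multiplying FPKM by exon length gave whole fragments for 97.2% to 97.5% of values under 1000 fragments, within 0.02 fragments, and these gave the depth. Such floors cover counting error only.

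The filter asked for 1 FPKM in 3 or more libraries, and the genes that passed (12289, all 9 factor genes among them) entered 1 limma fit (version 3.58.1, R 4.3.3) of log2(FPKM + 1) with a mean-variance trend and 1 term per group, leaving 6 residual degrees of freedom. All tests were two-sided, with Benjamini-Hochberg adjustment over all genes tested. A fold is a ratio of mean FPKM and a log2 change is a fitted difference, so they need not match. Tables and figures were made with Python 3.11.15. The factor genes, the 22 gene lists, the promoter motifs and the tests were chosen with earlier results of these data known. From each list, up to 2 called genes per direction with the smallest adjusted p could be named with values, or else the 2 most abundant, and names of other called genes in short lists were added after their values were seen. Alternatives were a pseudocount of 0.1, no filter, a filter at 5 FPKM, scaling without the 10 most abundant genes, quantile normalization, voom on the recovered fragments, a fit of only the 2 groups compared, a replicate block, each library left out in turn and, added after seeing the data, KO C and fl C left out together. Values of some listed genes are not reported here.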

Additional observations from a re-analysis of the deposited data

How the results depend on the processing

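Direction and side of the threshold stayed for 428 of the 483 recomputed log2 changes of the 9 factor genes. The 5 factor genes called in KO against fl became 2 with no filter, 3 when scaled without the 10 most abundant genes, 2 with only KO and fl fitted, 2 without KO C and fl C, and 1 to 5 when a single library was left out. Klf4 was called under every alternative run. Over all genes tested, KO against fl had 959 of 27778 called with no filter and 1353 of 12275 when scaled without the 10 most abundant genes. With only KO and fl fitted 794 of 12289 were called, and 452 of 12019 without KO C and fl C. With 1 library left out 573 to 1261 (4.71% to 10.4%) were called, against 1352 of 12289 as reported. With 1 library left out, 6 to 7 of the 9 were called in Gr_1 against fl, where 53.9% to 62.6% of all genes were called, and 6 to 8 in KO against Gr_1, where 46.3% to 62.2% were called. Directions that turned belonged to changes that were never called in that comparison. Bcl6 in KO against fl was 0.010 without the 10 most abundant genes and -0.18 to 0.045 with 1 library left out. Runx1 there was 0.071 without the 10 most abundant genes, 0.025 after quantile normalization, 0.018 without KO C and fl C and -0.073 to 0.045 with 1 library left out. Maf in Gr_1 against fl was -0.16 to 0.042 with 1 library left out, and it was not tested under the filter at 5 FPKM. Zeb2 in KO against Gr_1 was called with voom (adjusted p = 0.02003) under 5 further settings, and without fl A or fl C. The cause of these moves was not tested. Deviations of same-letter KO and fl libraries correlated at 0.140, -0.0119 and 0.0752, and those of different letters at -0.132 to 0.0818. With 3 libraries a group, whether the letters pair the samples was not settled. With the letter as a replicate block, 1037 genes and 4 of the 9 factor genes were called in KO against fl, Maf being lost, and no other call among the 9 changed. Depth limits Maf most, at 101 to 261 fragments per library.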
